A study of Rattus norvegicus with 10 samples.

Results

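Astrocytes are the glial cells that clear glutamate and potassium from synapses, couple to one another through gap junctions and wrap blood vessels with endfeet rich in water channels. When brain tissue is injured or accumulates amyloid they become reactive, a state best known for raised levels of the filament genes Gfap and Vim, and it may be accompanied by lower levels of the transporters and enzymes of the resting, homeostatic state. The astrocyte genes described here were taken by name, as markers of the cell type. The names are Gfap, Vim, Aqp4, Slc1a2, Slc1a3, Gja1, S100b, Glul, Aldoc and Sox9. Of these 10 genes, 9 are among the 17168 gene symbols examined. Sox9 was not analysed here. All 9 passed the filter on low counts, as did 11791 genes in all, with between 429 and 27785 estimated counts per animal. Gfap and Vim were taken as the reactive pair and the other 7 as homeostatic genes.

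RNA was measured in the left hippocampus of 10 female rats of the TgF344 line (genotype Tg-AD), a model of Alzheimer's disease that carries mutant human amyloid precursor protein and presenilin 1 transgenes under the mouse prion promoter. Both groups carried the transgenes and were killed at 11 months of age, and no non-transgenic animals were analysed here. The 5 untreated animals ate ordinary rodent chow, and the 5 RG2833 animals ate chow with 750 mg of RG2833 per kg for 6 months from 5 months of age. RG2833 inhibits the histone deacetylases HDAC1 and HDAC3, enzymes that remove acetyl groups from histones. A blue food dye distinguished the chows, and the labels do not say whether the untreated animals received it. The question was whether the inhibitor moved astrocyte transcripts toward or away from the reactive state.

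Values are CPM, counts scaled to library size, after TMM normalization, which sets each library to a common scale on the assumption that most genes do not change. They compare one gene between animals and not one gene with another, since they are not corrected for transcript length. The libraries held between 8764245 and 11311652 counts. Ribosomal RNA loci took a share of counts that was between 2.70% and 5.36% in untreated and between 1.13% and 1.96% in RG2833 animals, so it separated the groups without overlap. Among the libraries, 2 stood apart. In untreated replicate 1 the summed level of 8 choroid plexus markers was 2481 CPM, against 5.34 to 48.0 CPM in the other 9 animals, and the same library had the highest sum of 9 oligodendrocyte markers (18301 CPM against 5978 to 13025). Untreated replicate 4 grouped with the treated animals on principal component 1 of log2 CPM, at 11.5 against 9.18 to 25.3 for RG2833 and -27.8 to -13.8 for the other untreated animals. Without it 1556 genes were called, against 599 with all animals. In whole hippocampus, fewer astrocytes and less RNA per astrocyte cannot be told apart.

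To show the control sequence at the genes the comparison turns on, the 250 bases before the annotated start of the reactive pair and of Aldoc, the homeostatic gene with the smallest p-value, are printed from RefSeq (build GRCr8, which is not the build named for the counts). The windows are chr10:88361662-88361911 on the minus strand for Gfap, chr17:81577011-81577260 on the plus strand for Vim and chr10:63715294-63715543 on the plus strand for Aldoc. Capitals mark matches to any of 3 motifs on either strand. The first is 1 arm of a nuclear factor I site, searched with the letters TTGGC, for a family of factors active in astrocyte development. The next is the GC box bound by Sp1 and related factors, searched with the letters GGGCGG. The last is the TATA box near which transcription begins at some promoters, searched with the letters TATAAA.
Gfap: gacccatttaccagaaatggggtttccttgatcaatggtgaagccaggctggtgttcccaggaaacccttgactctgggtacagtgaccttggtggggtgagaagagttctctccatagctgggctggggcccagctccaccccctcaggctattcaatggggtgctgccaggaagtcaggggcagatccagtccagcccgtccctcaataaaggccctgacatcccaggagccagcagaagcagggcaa
Vim: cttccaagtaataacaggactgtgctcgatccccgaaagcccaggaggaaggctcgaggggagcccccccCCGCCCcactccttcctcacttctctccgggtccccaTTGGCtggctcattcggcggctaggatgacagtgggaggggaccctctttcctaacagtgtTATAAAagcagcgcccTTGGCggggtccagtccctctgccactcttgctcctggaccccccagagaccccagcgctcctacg
Aldoc: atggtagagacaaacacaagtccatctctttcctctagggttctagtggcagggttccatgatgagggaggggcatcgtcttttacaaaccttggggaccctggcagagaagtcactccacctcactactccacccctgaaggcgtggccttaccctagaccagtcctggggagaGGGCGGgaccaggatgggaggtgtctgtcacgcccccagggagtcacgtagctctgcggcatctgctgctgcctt
The Vim window held 2 nuclear factor I arms, 1 GC box and 1 TATA box, which did not overlap. The Aldoc window held 1 GC box, and the Gfap window held none of the 3 motifs. The STAT motif TTCNNNGAA, also searched on both strands, was in none of the 3 windows. Across all 33469 RefSeq windows of this length, 40.3% held the nuclear factor I arm, 30.5% the GC box, 12.9% the TATA box and 7.67% the STAT motif. Among the 9 astrocyte genes, counting any annotated start, 5 had a window with the nuclear factor I arm (Vim, Slc1a2, Slc1a3, S100b and Glul), 4 with the GC box, 1 with the TATA box and 0 with the STAT motif. These counts are per gene and the shares above are per window. A gene can have several windows, so the 2 are not directly comparable. A match describes letters only.

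None of the 9 astrocyte genes passed an adjusted p under 0.05 between RG2833 and untreated animals (edgeR quasi-likelihood test, Benjamini-Hochberg adjustment over all genes). At that threshold 5.08% of all 11791 tested genes were called. DESeq2's Wald test, which called 11% of all genes, limma-voom, which called 4.66%, and limma trend, which called 5.16% and 4.89% with pseudocounts of 1 and 0.1, also called 0 of the 9. At an unadjusted p under 0.05, 1 of the 9 passed (Aldoc), against 24.5% of all genes. In no astrocyte gene did the 5 RG2833 values lie wholly outside the 5 untreated values, while 7.27% of all tested genes showed such a separation (3.8% higher and 3.47% lower in RG2833). The estimated difference was above 0 in 4 genes and below 0 in 5, with a median log2 fold change of -0.05 beside -0.0035 over all tested genes. The 95% interval of every one of the 9 fell short of a 2-fold change in either direction, and smaller changes were not excluded.

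**Figure D1:**
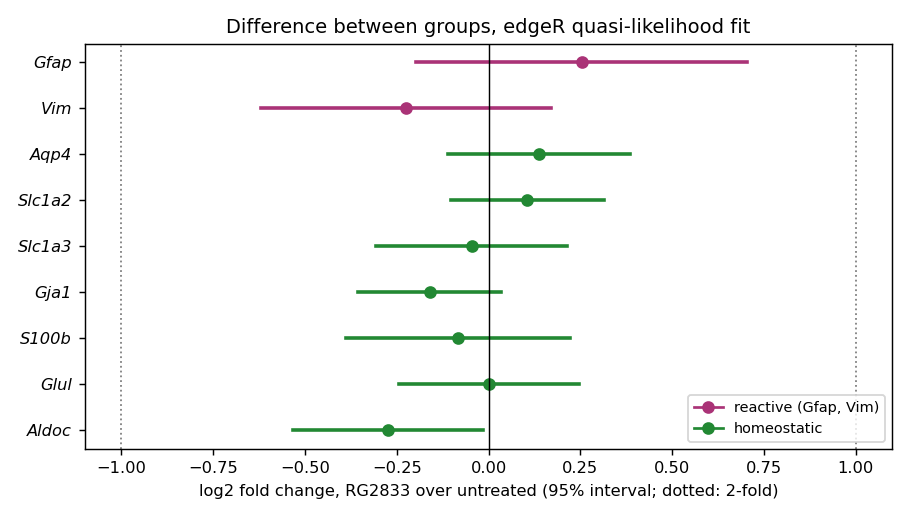
Log2 fold change of RG2833 over untreated animals for each astrocyte gene, with 95% intervals from the edgeR fit (5 animals per group). Purple marks Gfap and Vim, green the homeostatic genes, and dotted lines a 2-fold change. Every interval lies inside the dotted lines, and that of Aldoc is the one that does not cross 0.

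Gfap encodes glial fibrillary acidic protein, the main filament of astrocytes and the usual measure of reactivity. Its level in untreated replicates 1 to 5 was 1714, 2552, 1343, 2586 and 1133 CPM. In RG2833 replicates 1 to 5 it was 1878, 2297, 2078, 2452 and 2416 CPM. The untreated animals fell into 2 with high and 3 with lower values, and all 5 RG2833 animals lay inside the untreated range and above the untreated mean. The means were 1866 ± 675 and 2224 ± 242 CPM (SD, n = 5 each), a log2 fold change of 0.25 with an SE of 0.21 (edgeR adjusted p = 0.477). The interval ran from 0.873-fold to 1.63-fold, the widest of the 9 genes together with that of Vim. The highest untreated value was 2.28 times the lowest, while among RG2833 animals this ratio was 1.31. This difference in spread was not tested. The log2 fold change came down to 0.12 without untreated replicate 5 and 0.15 without untreated replicate 3, and it was 0.40 without untreated replicate 4 and 0.39 without untreated replicate 2.

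Vim encodes vimentin, a filament protein of reactive astrocytes that is also made by vascular, ependymal and choroid plexus cells. Its level was 95.3, 66.2, 51.8, 65.7 and 50.6 CPM in untreated replicates 1 to 5. It was 40.9, 53.0, 73.8, 61.8 and 52.5 CPM in the RG2833 replicates. Thus Vim leaned the opposite way to Gfap, with 4 of 5 RG2833 animals inside the untreated range and 1 below it. The means were 65.9 ± 18.01 and 56.4 ± 12.2 CPM (SD, n = 5 each), a log2 fold change of -0.22 with an SE of 0.18 (edgeR adjusted p = 0.473). The highest value, in untreated replicate 1, came from the library with the choroid plexus transcripts. Without that animal the log2 fold change was -0.06 (edgeR adjusted p = 0.866), and with the choroid plexus score as a covariate it was -0.09 (edgeR adjusted p = 0.692). The score rests on the 2 choroid plexus markers past the filter, Ttr and Clic6. Both were highest in untreated replicate 1 (2381 and 23.6 CPM), so these 2 fits are not separate evidence. The part of choroid plexus tissue in the Vim difference was not tested. Ependymal markers were also highest in that library, at 47.8 CPM summed over 6 genes, against 22.9 to 36.7 CPM elsewhere. Summed vascular markers (13 of 13 in the table, none at 0) ranged from 338 to 486 CPM in untreated and from 310.2 to 347 CPM in RG2833 animals. With the vascular score as a covariate, the Vim difference was -0.25 (edgeR adjusted p = 0.616).

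**Figure D2:**
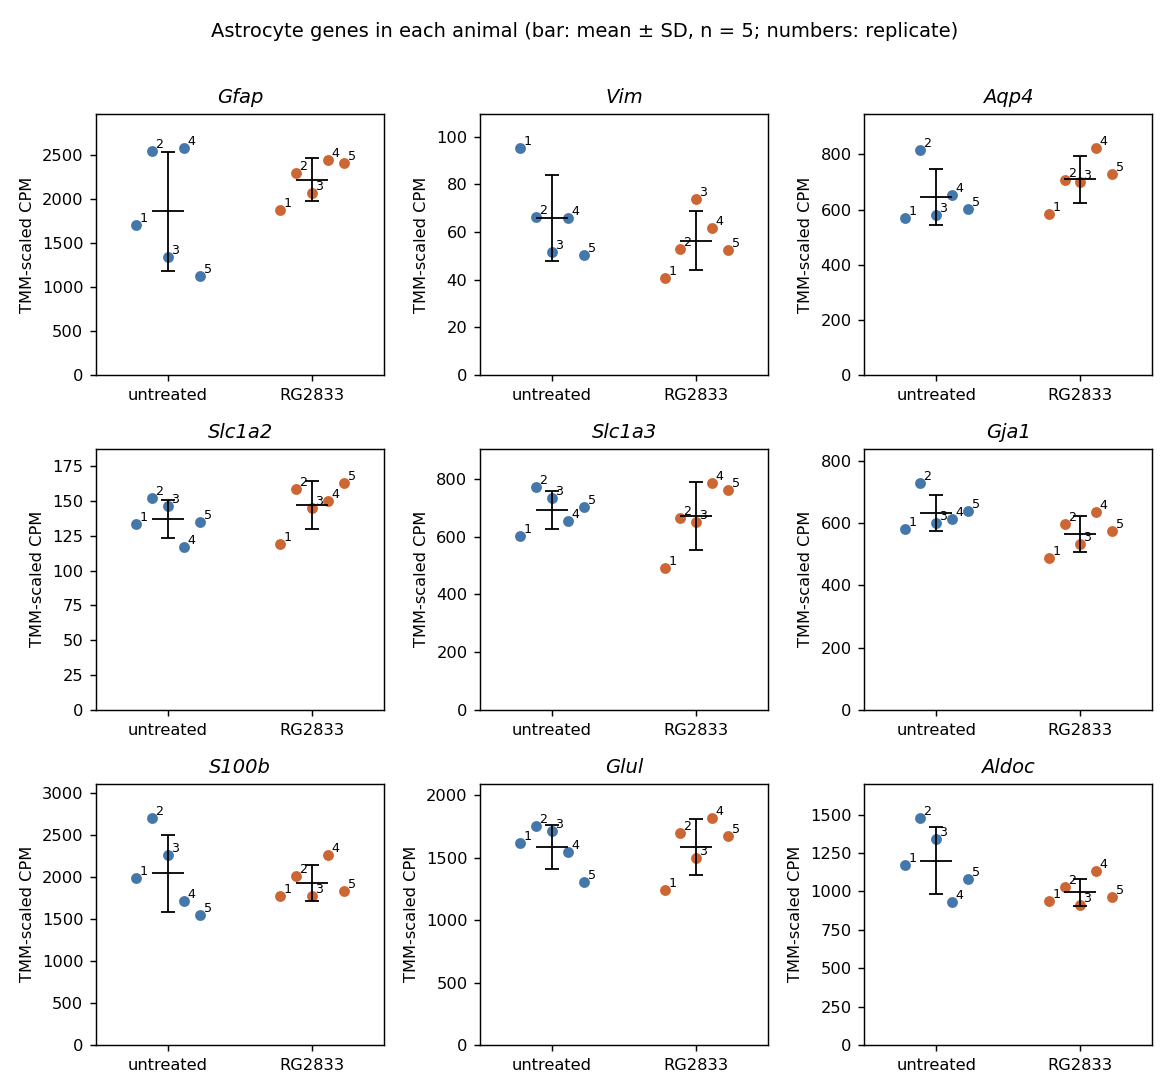
TMM-scaled CPM of the 9 astrocyte genes in each animal, with untreated animals in blue, RG2833 animals in orange, replicate numbers beside the points and bars for the mean ± SD (n = 5 per group). Every vertical axis starts at 0. The groups overlap in every panel, and untreated replicate 2 is the highest untreated animal for all 7 homeostatic genes.

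The glutamate transporters and the enzyme that acts after them form the recycling arm of the homeostatic set. Slc1a2 encodes GLT-1, the main glutamate transporter of adult hippocampal astrocytes. Its level was 133, 152, 146, 117 and 135 CPM in untreated replicates 1 to 5 and 119, 158, 145, 150.0 and 163 CPM in the RG2833 replicates. The RG2833 group held the 2 highest animals, but its lowest animal was under 4 of the 5 untreated ones. For Slc1a2 the log2 fold change came to 0.11 ± 0.10 (SE; edgeR adjusted p = 0.528), with an interval from 0.931-fold to 1.24-fold.

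Slc1a3 encodes GLAST, the transporter shared by astrocytes and radial glia. Untreated replicates 1 to 5 had 602, 771, 734, 656 and 703 CPM, and the RG2833 replicates had 491, 666, 652, 787 and 762 CPM. The RG2833 animals held both the lowest and the highest value of all 10. Slc1a3 had a log2 fold change of -0.05 with an SE of 0.12 (edgeR adjusted p = 0.848), and it changed sign, to 0.05, without RG2833 replicate 1 and, to 0.07, with the vascular score as a covariate. The log2 ratio of Slc1a2 to Slc1a3 within an animal, which does not depend on library scaling, was -2.34 ± 0.11 in untreated and -2.18 ± 0.14 in RG2833 animals (SD, n = 5 each), with overlapping ranges.

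Glul encodes glutamine synthetase, which turns glutamate taken up by astrocytes into glutamine for neurons. Its level was 1619, 1755, 1712, 1546 and 1303 CPM in untreated replicates 1 to 5 and 1244, 1699, 1501, 1822 and 1672 CPM in the RG2833 replicates. The group means were 1587 ± 178 and 1587 ± 224 CPM (SD, n = 5 each). For Glul the log2 estimate was 0.00037 ± 0.11 (SE; edgeR adjusted p = 0.999), with an interval from 0.844-fold to 1.19-fold, and its sign turned negative under the other library scalings (-0.0023 and -0.011), so no direction can be given.

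Aqp4 and Gja1 belong to the membrane of endfeet and cell contacts. Aqp4 encodes aquaporin 4, the water channel of endfeet. Its level was 571, 817, 579, 654 and 602 CPM in untreated replicates 1 to 5, and 585, 709, 698, 823 and 729 CPM in the RG2833 replicates. Although 4 of 5 RG2833 animals were above the untreated mean, untreated replicate 2 exceeded 4 of them. In Aqp4 the log2 fold change stood at 0.14 ± 0.11 (SE; edgeR adjusted p = 0.486).

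Gja1 encodes connexin 43, the principal gap junction protein of astrocytes. It was 581, 729, 601, 612 and 638 CPM in untreated replicates 1 to 5, and 486, 596, 534, 636 and 576 CPM in the RG2833 replicates. In all, 3 of the RG2833 animals were below every untreated animal. For Gja1 the log2 fold change stood at -0.16 ± 0.09 (SE; edgeR adjusted p = 0.291), with an interval from 0.781-fold to 1.02-fold.

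S100b and Aldoc are abundant astrocyte transcripts outside the membrane. S100b encodes a calcium-binding protein that astrocytes also secrete. Its level was 1995, 2709, 2261, 1712 and 1549 CPM in untreated replicates 1 to 5, and 1770.02, 2018, 1771, 2259 and 1832 CPM in the RG2833 replicates. All 5 RG2833 animals were inside the untreated range. In S100b the log2 estimate was -0.08 ± 0.14 (SE; edgeR adjusted p = 0.754), and it was 0.04 without untreated replicate 2.

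Aldoc encodes aldolase C, the brain form of a glycolytic enzyme, and had the smallest p-value of the 9 genes. Untreated replicates 1 to 5 had 1174, 1481, 1342, 930 and 1083 CPM, and the RG2833 replicates had 936, 1026, 911, 1135 and 963 CPM. All 5 RG2833 animals were below the untreated mean, but untreated replicate 4 was lower than 4 of them. The means were 1202 ± 216 and 994 ± 89.5 CPM (SD, n = 5 each), a log2 fold change of -0.27 ± 0.12 (SE; unadjusted p = 0.0395, edgeR adjusted p = 0.1798). Without untreated replicate 4, Aldoc passed the threshold (log2 fold change -0.35, edgeR adjusted p = 0.0447), in a fit that called 13.1% of all genes. Over the other fits that left out 1 animal or changed a setting it did not pass. After adjustment for the share of ribosomal RNA counts its log2 fold change was 0.19 (edgeR adjusted p = 0.99992). That share separates the groups completely, so it and the treatment cannot be told apart.

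The 2 reactive genes were set against the 7 homeostatic genes by the mean of centred log2 CPM over each set in each animal. The reactive level minus the homeostatic level was 0.28, -0.02, -0.47, 0.37 and -0.42 in untreated replicates 1 to 5. It was -0.04, -0.02, 0.27, 0.01 and 0.02 in the RG2833 replicates. Untreated animals thus lay on both sides of the RG2833 animals, and 4 of the 5 RG2833 animals were within 0.04 of 0. The group means were -0.05 ± 0.39 and 0.05 ± 0.13 (SD, n = 5 each), a difference of 0.10 that was smaller than the SD of either group. Because the genes were chosen with results of these data known, no p-value is given for this level. The difference came down to -0.0046 without untreated replicate 3 and to 0.0063 without untreated replicate 5, and it rose to 0.21 without untreated replicate 4 and to 0.18 without untreated replicate 1.

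**Figure D3:**
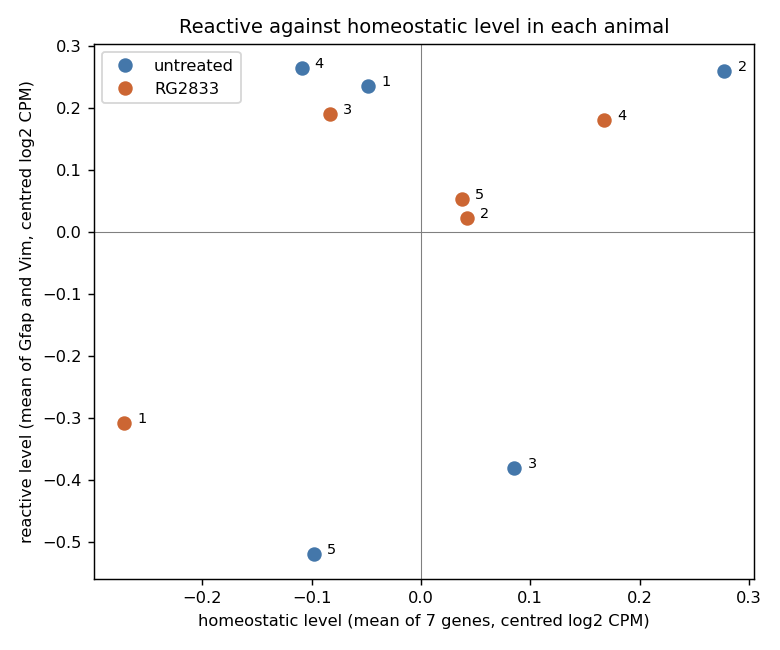
Reactive level (mean of Gfap and Vim) against homeostatic level (mean of 7 genes) in each animal, both as centred log2 CPM, with replicate numbers beside the points. The untreated animals span reactive levels from -0.52 to 0.26 and the RG2833 animals from -0.31 to 0.19, so neither axis separates the groups.

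Ratios between single genes gave the same picture of wide untreated and narrow RG2833 values for Gfap. The log2 ratio of Gfap to Slc1a2 was 3.68, 4.07, 3.20, 4.47 and 3.07 in untreated replicates 1 to 5. It was 3.98, 3.86, 3.84, 4.03 and 3.89 in the RG2833 replicates. The RG2833 animals all lay within the untreated range, with an SD of 0.08 against 0.59 (n = 5 each), a difference in spread that was not tested. The log2 ratio of Gfap to Vim was 4.78 ± 0.49 in untreated and 5.32 ± 0.30 in RG2833 animals (SD, n = 5 each). Here 4 of the 5 RG2833 animals were above every untreated animal, and RG2833 replicate 3, at 4.82, was inside the untreated range of 4.17 to 5.30. The lowest untreated ratio was that of replicate 1, the library with choroid plexus transcripts and the highest Vim.

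The homeostatic genes varied together from animal to animal within each group. Untreated replicate 2 was the highest untreated animal for all 7, and RG2833 replicate 4 was the highest RG2833 animal for 6 of the 7, with RG2833 replicate 5 highest for Slc1a2. RG2833 replicate 1 was the lowest RG2833 animal for 6 of the 7 and for 8 of all 9, the exception being Aldoc. Over the 10 animals, Pearson correlations of deviations from the group means of log2 CPM were between 0.44 and 0.92 for the 21 homeostatic pairs (median 0.66). For the 14 pairs of a reactive and a homeostatic gene they were between 0.00049 and 0.69 (median 0.21), and Gfap with Vim gave 0.40. All points in these comparisons share the same 10 libraries and their scaling, and the correlations are descriptions without a test. The closest pairs were Aqp4 with Gja1 (r = 0.92, Spearman rho = 0.89, r = 0.82 without the 2 farthest animals) and S100b with Aldoc (r = 0.91, rho = 0.98, r = 0.92 without them). Gfap with Slc1a2 gave r = 0.07 and rho = 0.27, and r = 0.50 without the 2 farthest animals.

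Likeness was also measured against 9200 other genes with a mean log2 CPM of at least 3, by the same correlation over 10 animals. The genes most like the mean of the homeostatic genes included Retsat (r = 0.98), Rpf1 (0.97), Slc39a1 (0.96) and Add3 (0.95), and 95% of the genes were under 0.68. Retsat encodes a retinol saturase. The 5 most like Gfap were Pabpc1 (r = 0.97), Pla2g7 (0.95), Usp40 (0.94), Chi3l1 (0.94) and Mrpl4 (0.92), with 95% of the genes under 0.66. Pla2g7 and Chi3l1 are both known as astrocyte transcripts. None of these 9 genes passed the test between groups (smallest edgeR adjusted p = 0.0816, for Mrpl4).

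Further homeostatic astrocyte genes were taken from a list of 40 transporters, channels, enzymes and surface proteins, of which 39 were tested. Of these, 2 passed the test, both lower in RG2833 animals, and 0 passed in the higher direction, beside 2.67% and 2.41% of all genes. At an unadjusted p under 0.05, 8 of the 39 passed, beside 24.5% of all genes. Of the 39 estimates, 20 were above 0 and 19 below, with a median of 0.02. Among those that did not pass, Gjb6, the second astrocyte connexin, had a log2 fold change of -0.32 with an SE of 0.14 (edgeR adjusted p = 0.183). Kcnj10, the potassium channel Kir4.1, had 0.29 ± 0.14 (SE; edgeR adjusted p = 0.221). These 2 genes were chosen after their values were seen.

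The first of the called genes was Itih3, which encodes an inter-alpha-trypsin inhibitor heavy chain, a partner of hyaluronan in extracellular matrix. Its level was 339, 616, 427, 187 and 426 CPM in untreated replicates 1 to 5, and 166, 183, 193, 211 and 193 CPM in the RG2833 replicates. Untreated replicate 4 lay among the RG2833 animals and the other 4 untreated animals lay above all of them. Itih3 fell by 1.07 ± 0.23 on the log2 scale (log2 fold change -1.07; SE; edgeR adjusted p = 0.0268). It kept its call without untreated replicates 1, 2, 4 or 5 and lost it without untreated replicate 3 or any 1 RG2833 animal (edgeR adjusted p up to 0.0753). With a replicate block its log2 fold change was -0.99 (edgeR adjusted p = 0.0704), and with the vascular score as a covariate it was also -0.99 (edgeR adjusted p = 0.175). Of the 13 vascular markers 12 had estimates below 0 and 1 above, beside 49.4% of all genes above 0. None passed the test, beside 5.08% of all genes. Their part in the Itih3 result was not tested.

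Slc25a18, a mitochondrial glutamate carrier, was 74.6, 95.8, 108, 41.2 and 79.5 CPM in untreated replicates 1 to 5, and 45.3, 45.9, 39.6, 59.8 and 40.4 CPM in the RG2833 replicates. Untreated replicate 4 again lay among the RG2833 animals. For Slc25a18, which fell, the log2 fold change was -0.79 ± 0.21 (SE; edgeR adjusted p = 0.0495). The call was kept in 1 of the 10 fits that left out an animal, the one without untreated replicate 4 (edgeR adjusted p = 0.00173), and lost in the other 9 (up to 0.126). With a replicate block its log2 fold change was -0.75 (edgeR adjusted p = 0.125), with the vascular score -0.68 (edgeR adjusted p = 0.249) and with the choroid plexus score -0.81 (edgeR adjusted p = 0.0717). The call was also lost with no filter (edgeR adjusted p = 0.0507), limma-voom (adjusted p = 0.0732) and limma trend (adjusted p = 0.0663 and 0.0671). Adjusted for the share of ribosomal RNA counts, the estimates were -0.29 for Itih3 and 0.03 for Slc25a18 (edgeR adjusted p = 0.99992 for both). The fits with the vascular score, the ribosomal RNA share and the replicate block called 8, 2 and 180 of all 11791 genes. A lost call in them therefore says little.

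**Figure D4:**
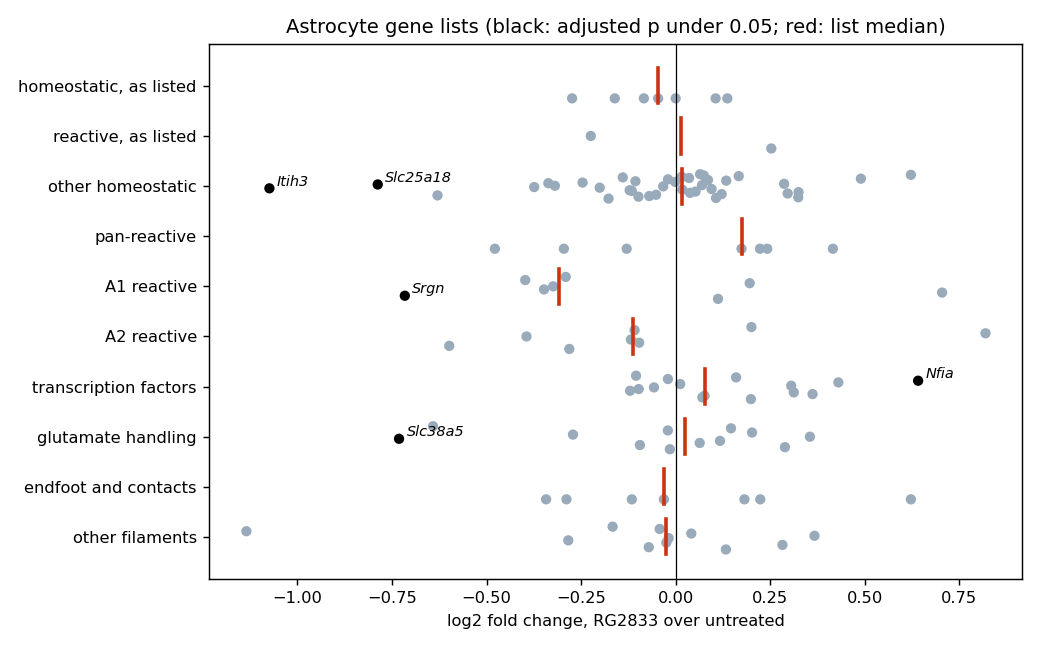
Log2 fold change of RG2833 over untreated animals for each tested gene of the astrocyte and related lists, 1 point per gene, with black for an adjusted p under 0.05 and red bars for list medians. The glutamate handling and filament lists also hold neuronal genes. Named are the 5 genes that passed, Itih3, Slc25a18, Srgn and Slc38a5 below 0 and Nfia above 0. The medians run from -0.31 (A1 list) to 0.17 (pan-reactive list).

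Reactive genes beyond Gfap and Vim came from 3 lists first defined in injured or inflamed mouse brain: 11 pan-reactive genes, 9 genes of the neuroinflammatory A1 type and 12 of the ischemic A2 type. Of the 32 genes 23 were tested, and 0 passed higher and 1 lower, beside 2.41% and 2.67% of all genes. At an unadjusted p under 0.05, 4 of the 23 passed, beside 24.5% of all genes. The median log2 fold changes were 0.17 for the 7 tested pan-reactive, -0.31 for the 8 A1 and -0.11 for the 8 A2 genes. Several of these genes are also expressed by microglia and vascular cells. Some well-known reactive genes were near the limit of detection: Lcn2 had at most 4 counts and Serpina3n at most 3 counts in any animal. A floor of 3 counts corresponds to between 0.268 and 0.343 CPM and covers counting error only. Both were chosen after their values were seen.

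The A1 list held the gene that passed, Srgn, which encodes serglycin, a proteoglycan of immune and endothelial cells. Its level was 33.1, 43.6, 30.6, 24.0 and 19.4 CPM in untreated replicates 1 to 5, and 16.6, 20.7, 18.6, 18.3 and 17.4 CPM in the RG2833 replicates. One RG2833 animal overlapped the lowest untreated one. Srgn fell, with a log2 fold change of -0.72 with an SE of 0.18 (edgeR adjusted p = 0.0420). The call was kept without untreated replicate 4 or 5 and lost in the other 8 fits that left out an animal (edgeR adjusted p up to 0.1096), and it was lost with limma-voom (-0.66, adjusted p = 0.0614) and the replicate block (-0.67, edgeR adjusted p = 0.0577). Of 10 microglial markers, 9 had estimates below 0 and 1 of the 10, Aif1, was called lower, beside 2.67% of all genes. Their summed level was 568 to 904 CPM in untreated and 562 to 705 CPM in RG2833 animals, and its part in the Srgn result was not tested. Of 13 vascular markers 12 also had estimates below 0 and 0 were called, beside 5.08% of all genes. Their part in the Srgn result was likewise not tested. With the vascular score as a covariate Srgn was at -0.55 and its call was lost (edgeR adjusted p = 0.266). The call was also lost with the ribosomal RNA share and with the choroid plexus score. The vascular and ribosomal RNA fits called 8 and 2 of all 11791 genes, so a lost call in them says little. Over the 22 other fits its log2 fold change ran from -0.84 to -0.15.

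In the pan-reactive list the largest estimates were those of Osmr, the oncostatin M receptor, at -0.48 ± 0.33 and Aspg, an asparaginase, at 0.42 ± 0.30 (log2, SE; edgeR adjusted p = 0.391 and 0.4096). In the A2 list they were those of Ptgs2, the inducible cyclooxygenase that neurons also express, at 0.82 ± 0.28 and Tm4sf1, which vascular cells express, at -0.60 ± 0.21 (log2, SE; edgeR adjusted p = 0.0964 and 0.108). C3, the complement component used as the leading A1 marker, had a log2 fold change of -0.29 with an SE of 0.23 (edgeR adjusted p = 0.472), and was chosen after its value was seen. Serping1, the C1 inhibitor gene of the same list, also chosen afterwards, had the largest estimate in the other direction, 0.71 ± 0.30 (log2, SE; unadjusted p = 0.0342, edgeR adjusted p = 0.167).

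Of 16 transcription factors that specify or maintain astrocytes, 15 were tested, and 1 passed, Nfia, in the higher direction, beside 2.41% of all genes. At an unadjusted p under 0.05, 4 of the 15 passed, beside 24.5% of all genes. Nfia encodes nuclear factor I/A, which starts the switch from neurogenesis to astrocyte formation in development and is also present in mature hippocampal neurons. Its level was 25.6, 29.7, 28.4, 36.5 and 24.96 CPM in untreated replicates 1 to 5, and 36.6, 52.2, 46.7, 40.4 and 50.8 CPM in the RG2833 replicates. The groups did not overlap, although untreated replicate 4 and RG2833 replicate 1 almost met. Nfia rose by a log2 fold change of 0.64 with an SE of 0.13 (edgeR adjusted p = 0.0189). The call was kept in 6 of the 10 fits that left out an animal and lost without untreated replicate 3 or RG2833 replicate 2, 3 or 5 (edgeR adjusted p between 0.0568 and 0.0643). It was also lost with the vascular score (edgeR adjusted p = 0.0920) or the ribosomal RNA share (edgeR adjusted p = 0.99992) as a covariate, with log2 fold changes of 0.81 and 0.55. Those fits called 8 and 2 of all 11791 genes, so a lost call in them says little. With the vascular score the unadjusted edgeR p of Nfia was 0.000162, beside 0.000214 without a covariate.

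After Nfia, the smallest p-value of the list was that of Lhx2, a factor outside that family, named after its value was seen. Its log2 fold change was 0.31 ± 0.08 (SE; unadjusted p = 0.00289, edgeR adjusted p = 0.0526), and the groups did not overlap. The factors Nfix and Nfib, related to Nfia and named after their values were seen, had log2 fold changes of 0.43 ± 0.15 and 0.36 ± 0.15 (SE; edgeR adjusted p = 0.109 and 0.155). Sox2 and Id4, factors of astrocytes and their stem cells also named afterwards, had 0.01 ± 0.08 and -0.02 ± 0.10 (SE; edgeR adjusted p = 0.941 and 0.923). Stat3, the signal transducer that drives Gfap in reactive astrocytes, had 0.07 ± 0.07 (SE; edgeR adjusted p = 0.582) and was likewise named afterwards. Neuronal markers differed in the same libraries. The list for excitatory neurons also holds general neuronal genes, Rbfox3 and Snap25. All 9 of its genes had estimates above 0, beside 49.4% of all genes, and 2 of the 9 (Rbfox3 and Camk2a) were called higher, beside 2.41%. The sum of the 9 was 7843 to 10671 CPM in untreated and 11375 to 13082 CPM in RG2833 animals. Of 6 interneuron markers, 5 had estimates below 0 and 1 above, and 0 were called, beside 5.08% of all genes. The part of these neuronal transcripts in the Nfia result, or in the CPM of the astrocyte genes, was not tested.

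Among 12 genes of glutamate and glutamine handling outside the set above, all tested, 0 passed higher and 1 lower, beside 2.41% and 2.67% of all genes. Unadjusted, 4 of the 12 passed at 0.05, beside 24.5% of all genes. These included the neuronal transporter genes Slc17a7, also on the list for excitatory neurons, and Slc17a6, both named after their values were seen. Their log2 fold changes were 0.36 and -0.64 (edgeR adjusted p = 0.0689 and 0.0861). The called gene was Slc38a5, a glutamine transporter of glia and vessels. Its level was 3.89, 4.69, 4.91, 3.35 and 3.91 CPM in untreated replicates 1 to 5, and 2.099, 2.32, 2.69, 2.69 and 2.72 CPM in the RG2833 replicates, with at most 53 counts in any animal. The groups did not overlap. Slc38a5 fell, with a log2 fold change of -0.73 with an SE of 0.17 (edgeR adjusted p = 0.0351), and the call was kept without untreated replicate 4 or 5 and lost in the other 8 fits that left out an animal (edgeR adjusted p up to 0.0924). With a replicate block its log2 fold change was -0.72 (edgeR adjusted p = 0.0905). Of the 13 vascular markers 12 had estimates below 0 and 0 were called, beside 5.08% of all genes. Their sum averaged 403 CPM over the untreated animals against 333 CPM over those given RG2833. Its part in the Slc38a5 result was not tested. With the vascular score as a covariate, Slc38a5 was at -0.59 and its call was lost (edgeR adjusted p = 0.219). The call was also lost with the ribosomal RNA share (-0.49, edgeR adjusted p = 0.99992) and the choroid plexus score (-0.74, edgeR adjusted p = 0.0557). The vascular and ribosomal RNA fits called 8 and 2 of all 11791 genes, so a lost call in them says little. Slc38a3, the glutamine exporter of astrocytes, had a log2 fold change of 0.15 with an SE of 0.11 (edgeR adjusted p = 0.417), and was named after its value was seen.

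Genes of the endfoot and of astrocyte contact with other cells were represented by 10 names, of which 7 were tested, and 0 passed (edgeR), beside 5.08% of all genes. At an unadjusted p under 0.05, 5 of the 7 passed, beside 24.5% of all genes, and the list was chosen with results of these data known. The largest estimates were those of Megf10, a phagocytic receptor also on the homeostatic list, at 0.62 ± 0.17 and Utrn, which encodes utrophin, at -0.34 ± 0.11 (log2, SE; edgeR adjusted p = 0.0588 and 0.0817). DESeq2's Wald test called 2 genes of this list, 1 higher and 1 lower, beside 11% of all genes, and limma-voom called 0, beside 4.66%. Dag1, which encodes dystroglycan of the endfoot membrane and was named after its value was seen, had a log2 fold change of 0.18 with an SE of 0.08 (edgeR adjusted p = 0.182). Without untreated replicate 4, edgeR called 2 of the 7, beside 13.1% of all genes, and without RG2833 replicate 1 it called 1, beside 1.1%.

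Other intermediate filament genes were 12, of which 11 were tested, and 0 passed (edgeR), beside 5.08% of all genes. Unadjusted, 3 of the 11 passed at 0.05, beside 24.5% of all genes. DESeq2's Wald test called 1 of the 11, beside 11% of all genes, limma-voom called 0, beside 4.66%, and edgeR without untreated replicate 4 called 2, beside 13.1%. The largest estimates were those of Prph, the peripherin of peripheral and some central neurons, at -1.14 ± 0.40 and Nefh, the heavy neurofilament chain, at 0.37 ± 0.18 (log2, SE; edgeR adjusted p = 0.107 and 0.231). Nes, the filament of neural stem cells and of some reactive astrocytes, had -0.02 ± 0.15 (log2, SE; edgeR adjusted p = 0.952) and was named after its value was seen.

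Across 22 other ways of fitting the comparison, the direction of Gfap, Vim, Aqp4, Slc1a2 and Gja1 did not change. Gfap ran from 0.12 to 0.45, Aqp4 from 0.07 to 0.24, Slc1a2 from 0.05 to 0.27, Gja1 from -0.21 to -0.05 and Vim from -0.80 to -0.06 on the log2 scale. The outer value of Vim came from the fit adjusted for the ribosomal RNA share, whose edgeR adjusted p was 0.99992. In these fits none of the 9 genes passed the threshold, except Aldoc in the 1 fit named above, which called 13.1% of all genes. Some of the fits called few genes of any kind, 2 of 11791 with the ribosomal RNA covariate, 8 with the vascular score and 180 with the replicate block. The fit without untreated replicate 3 called 113, and those without RG2833 replicate 1, 2, 3 or 5 called 130, 112, 118 and 98. A count of 0 in any of these fits says nothing of these 9.

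**Figure D5:**
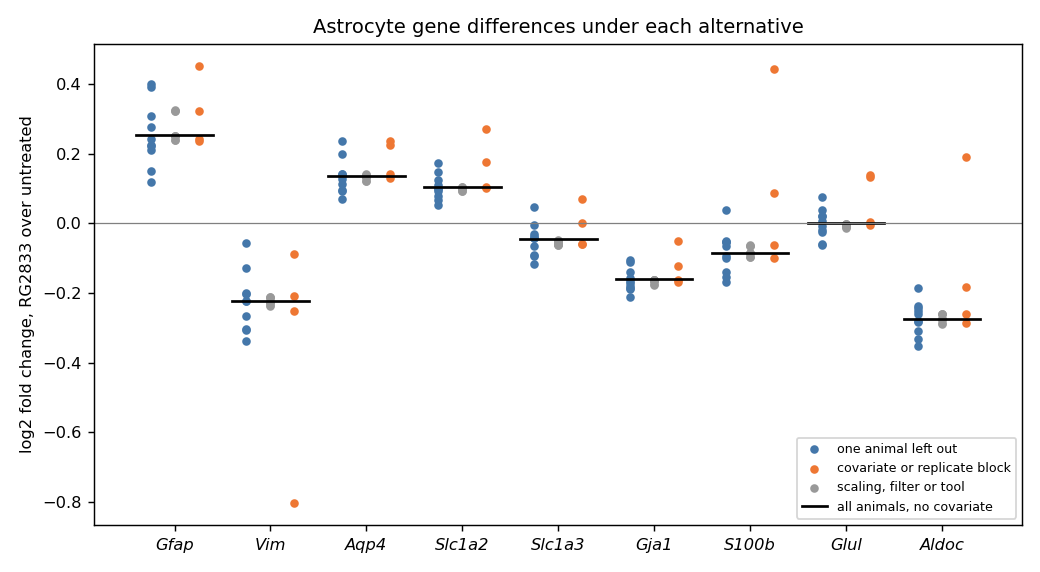
Log2 fold change of each astrocyte gene in the fit of all animals without a covariate (black bar) and under each alternative, with blue for fits that left out 1 animal, grey for other scalings, filters and tools, and orange for a covariate or a replicate block. Changes of scaling, filter or tool moved the values least, and the outlying orange points of Vim, S100b and Aldoc, at -0.80, 0.45 and 0.19, are from the ribosomal RNA covariate.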

How the data were processed

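Strand-specific mRNA libraries of the left hippocampus were made after column extraction of RNA, per the labels' protocols. The submitters' processing notes name bcl2fastq 2.17, Bowtie2 2.1.0, RSEM 1.2.15, edgeR and the build rn6, without roles. The gene annotation is not given in the sources used here. The authors deposited 1 table of RSEM expected counts per gene symbol, not normalized, and 1 table of normalized signal, CPM after TMM scaling, scaled by effective library size. Each column was assigned by the sample title in its heading.

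Rounded expected counts entered the tests. The filter filterByExpr, by group, kept 11791 of 17168 genes. RG2833 was compared with untreated over all 10 animals by the quasi-likelihood test in edgeR 4.0.16 (R 4.3.3), TMM-scaled, without covariates. Benjamini-Hochberg adjustment covered all tested genes, and a gene was called under 0.05. The SE was derived from the F statistic (log2 fold change over root F), and intervals are 95%. CPM are TMM-scaled, and a prior count of 2 was added for log2 CPM. The groups are separate animals. The same-numbered animals were not paired by the labels, and the correlation of their deviations is given with the alternatives. Alternatives used DESeq2 1.42.0, limma 3.58.1, other scalings and filters, covariates, a replicate block and fits without each animal. The tests were tested on simulated data. Chi-square per degree of freedom was at least 4.60 in the 20 same-group library pairs, so no library was counted as a duplicate.

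The astrocyte genes, the lists and the marker genes were chosen with earlier results of these data known. All 9 astrocyte genes are named. From each other list, called genes are named (up to 6) and, where none was called, the 2 with the largest change. Likeness was taken for genes with a mean log2 CPM of at least 3. Any other gene was named after its values were seen. Some genes that these rules name are not reported here. Promoter windows came from RefSeq (GRCr8). No gene coordinates are given for the counts.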

Additional observations from a re-analysis of the deposited data

How the results depend on the processing

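No astrocyte gene was called in any of the alternatives with a changed scaling, filter, tool, covariate, block or threshold, and leaving out 1 animal gave 0 to 1 called genes, the 1 being Aldoc without untreated replicate 4 (log2 fold change -0.35), where 13.1% of all genes were called. The fits with the ribosomal RNA share, the vascular score and the replicate block called so few genes in all (2, 8 and 180) that their 0 shows no stability. The same holds without untreated replicate 3 (113 genes) and without RG2833 replicate 1, 2, 3 or 5 (130, 112, 118 and 98). Calls of list genes that were lost in any of these fits are limited in the same way. The sign of Glul was negative with no filter (-0.0022), size factors from DESeq2 (-0.0023), library totals only (-0.011), a mean count of at least 50 (-0.014), DESeq2's Wald test (-0.0023), limma trend with pseudocounts 1 and 0.1 (-0.0062 for both), limma-voom (-0.0034) and the replicate block (-0.0042), and without untreated replicate 4 (-0.0085), untreated replicate 5 (-0.063), RG2833 replicate 2 (-0.025), RG2833 replicate 4 (-0.060) or RG2833 replicate 5 (-0.018), with a range without 1 animal of -0.063 to 0.0768. The other sign changes were Slc1a3 with the vascular score (0.0692) and without RG2833 replicate 1 (0.0484; without 1 animal its range was -0.116 to 0.0484), S100b with the ribosomal RNA share (0.45), with the vascular score (0.0886) and without untreated replicate 2 (0.0386; range without 1 animal -0.169 to 0.0386), and Aldoc (0.19) and Slc25a18 (0.0345) with the ribosomal RNA share. The cause was not tested.

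The count of all called genes, 599, became 1295 with DESeq2's Wald test, 180 with the replicate block, 2 with the ribosomal RNA share, 241 with the choroid plexus score, 8 with the vascular score and 1466 at an adjusted p under 0.1, and ran from 98 to 1556 without 1 animal. Other homeostatic genes, 2 called, became 1 with no filter, limma-voom, limma trend (both pseudocounts) and the choroid plexus score, 0 with the replicate block, the ribosomal RNA share and the vascular score, 4 with DESeq2's Wald test and 5 at an adjusted p under 0.1, and ran from 0 to 5 without 1 animal. Reactive list genes, 1 called, became 2 with DESeq2's Wald test and at an adjusted p under 0.1, 0 with limma-voom, limma trend at pseudocount 0.1, the replicate block and the 3 covariates, and ran from 0 to 3 without 1 animal. Transcription factors, 1 called, became 2 with DESeq2's Wald test, limma trend at pseudocount 1 and an adjusted p under 0.1, 0 with the ribosomal RNA share and the vascular score, and ran from 0 to 2. Glutamate handling genes, 1 called, became 3 with DESeq2's Wald test and at an adjusted p under 0.1, 0 with a mean count of at least 50, the replicate block and the 3 covariates, and ran from 0 to 3. Endfoot genes, 0 called, became 2 with DESeq2's Wald test and at an adjusted p under 0.1, and ran from 0 to 2. Filament genes, 0 called, became 1 with DESeq2's Wald test, and ran from 0 to 2. The reactive minus homeostatic difference ran from -0.0046 to 0.21 without 1 animal and from 0.099 to 0.11 under the other settings.

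The same-numbered animals did not deviate together (correlations of deviations over genes between -0.32 and 0.15, mean -0.066), so the replicate block has no basis in the design. At this depth the astrocyte genes had at least 429 counts each, so the spread between animals, not counting, limits their precision.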
